A study of Arabidopsis thaliana with 8 samples.

Results

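Seedlings of the cry1 cry2 double mutant of Arabidopsis thaliana grown in blue light were compared with wild-type seedlings grown in darkness. The comparison covers all gene models with at least 1 RPKM (read number scaled to gene length and library size) in at least 2 of its 4 libraries, which were 19279 of the 27416 models measured. The study sequenced polyadenylated RNA of whole seedlings in 4 groups of 2 libraries, and its labels set cryptochrome signalling beside the TIR1/AFB auxin receptors. The cry1 cry2 mutant grew in blue light, a wild-type group grew in the same blue light, a wild-type group grew in darkness, and an auxin receptor mutant in darkness entered the fit but is not described. All lines were Col-0. Seeds of every group were kept 3 days at 4 degrees and 12 h in white light, then 4 days in darkness or in blue light at 15 µmol/m2/s, on medium with 1% sucrose, and were collected at an age of 4.5 days. The cry1 and cry2 alleles are not named in the labels used here. Light and genotype differ together between blue-lit cry1 cry2 and the dark wild type, and no dark cry1 cry2 group was analysed here, so their parts in a difference cannot be told apart. Values of the blue-lit wild type are given beside the main results, and the contrast of cry1 cry2 with it in the same light is the test of whether both genotypes differ.

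Cryptochromes are flavoproteins that absorb blue light. Once lit, they hold back the COP1/SPA ubiquitin ligase, which removes HY5 and other factors of light growth in darkness, and they bind growth-promoting PIF transcription factors. A dark seedling has a long hypocotyl, a closed apical hook and chloroplast precursors, and in light it stops elongating and builds its photosynthetic machinery, a change called de-etiolation. Phytochromes and phototropins absorb blue light as well, and seedlings without cry1 and cry2 keep both classes of receptor.

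The libraries held 19.3 M to 23.1 M reads, and log2 values of replicate libraries had an SD of 0.109 to 0.118 over all tested genes. Changes are log2 fold changes of RPKM + 1, which understate the change of genes near 1 RPKM, and rises and falls named here are those with a Benjamini-Hochberg adjusted p below 0.05 in limma. Whether replicate libraries stem from separate cultures is not given in the labels, so p-values rest on the spread among these samples alone and that spread may be technical. In bulk RNA from whole seedlings, a change in the number of cells of a type and a change in RNA per cell cannot be told apart. The mutant libraries were not alike in all gene groups. The second mutant library was the higher of the pair for 54.2% of the 19279 members, but for 29 of 29 photosystem genes, 24 of 24 chlorophyll synthesis genes, 7 of 7 seed storage genes and 23 of 28 abscisic acid genes. It was the higher one for only 4 of 20 root tissue genes, 6 of 32 SAUR growth genes and 1 of 10 hypoxia genes. Root tissue markers summed to 1172 and 1068 RPKM in cry1 cry2, against 501 and 495 RPKM in the blue-lit wild type and 1182 and 1192 RPKM in the dark wild type, so the mutant and dark libraries were close in this measure and the blue-lit wild type stood apart. Root hair markers summed to 162 and 157 RPKM in cry1 cry2, against 212 and 189.8 RPKM in the blue-lit wild type and 140.0 and 160.4 RPKM in the dark wild type. The part of root content or of the mutant library in the results was not tested. For some lists, counts or medians without a library are given. Each list's counts run over the listed genes that were members. Of all members, 25.4% rose and 17.0% fell in cry1 cry2 relative to darkness, against 33.1% and 41.7% in the lit wild type. Counts of a list or family near these shares do not set it apart.

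Of the 19279 members, 4906 rose (25.4%) and 3281 fell (17.0%) in blue-lit cry1 cry2 relative to the dark wild type. Together these were 42.5% of the members. In the blue-lit wild type, 74.8% of the same models passed, of which 6372 rose (33.1% of members) and 8043 fell (41.7%). Members were selected on the mutant and dark libraries, so a gene high only in the lit wild type is not among them. Without the filter on low values, 7158 of 24717 models rose and 8374 fell in the lit wild type. Changes of at least 2-fold were rarer in the mutant, with 581 risen (3.01%) and 315 fallen (1.63%), against 2038 risen (10.6%) and 1886 fallen (9.78%) in the blue-lit wild type. Both comparisons use the same dark libraries. In the test of the difference itself, 68.4% of members passed, with 8299 higher (43.0%) and 4883 lower (25.3%) in cry1 cry2 than in the wild type under the same light. Differences of at least 2-fold in that test were 1392 higher (7.22%) and 1334 lower (6.92%). The direction splits moved with the scaling. Against darkness, 59.9% of the mutant's calls were rises as deposited and 46.8% after median-of-ratios scaling. It shifted the median of all members in that comparison from 0.06 to -0.01 on the log2 scale. For the mutant against the lit wild type, median-of-ratios scaling gave 6554 higher and 5997 lower, and upper-quartile scaling 6987 and 5742. For the lit wild type against darkness, they gave 6803 rises and 7511 falls, and 7090 and 7206. The values of cry1 cry2 and the dark wild type did not overlap for 14117 members (73.2%).

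**Figure D1:**
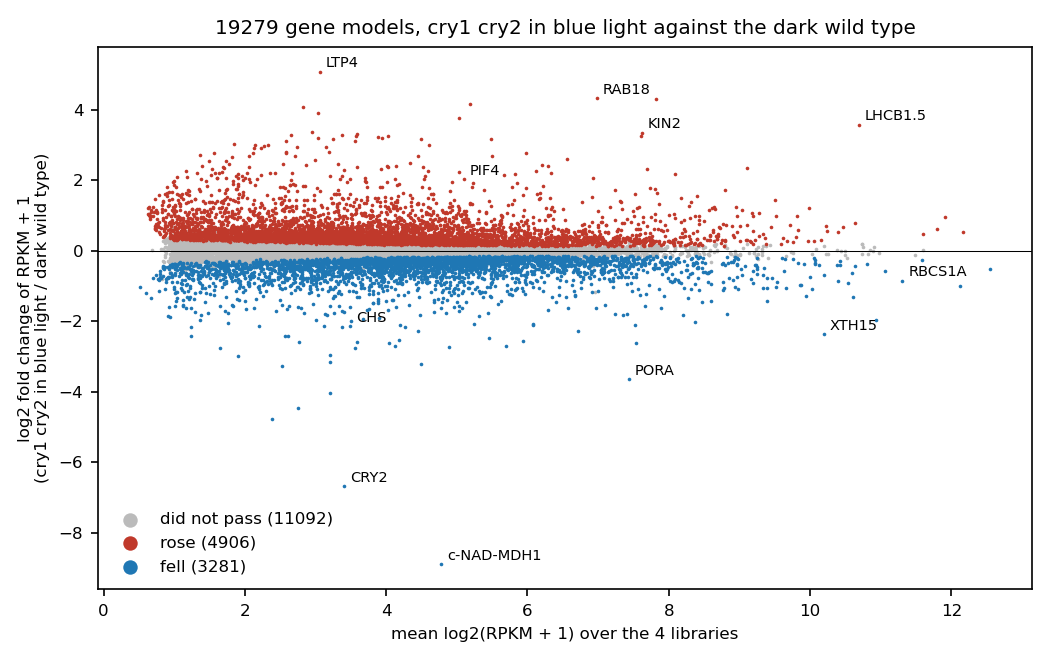
Each dot is 1 of the 19279 gene models, with the mean log2(RPKM + 1) over the 4 libraries on the horizontal axis and the log2 fold change of cry1 cry2 in blue light over the dark wild type on the vertical axis. Coloured dots passed the test, 4906 above and 3281 below 0, and most lie within 1 log2 unit of 0.

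At least 4-fold changes were 112 rises (0.581%) and 42 falls (0.218%) in the mutant, against 581 rises (3.01%) and 430 falls (2.23%) in the blue-lit wild type. Of the 112 risen models, 39 were under 1 RPKM on average in darkness and 21 averaged at least 100 RPKM in the mutant. Of the 42 fallen models, 13 averaged at least 100 RPKM in the dark wild type. The second mutant library was the higher of the pair for 89 of the 112 risen models (79.5%). It was the higher for 11 of the 42 fallen ones (26.2%), against 54.2% of all members.

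CRY2 and its neighbours checked the genotype. CRY2 was read 3 and 2 times in the cry1 cry2 libraries, against 3238 and 3006 times in the blue-lit wild type and 4549 and 4901 times in the dark wild type. c-NAD-MDH1, a cytosolic malate dehydrogenase and the next model on one side of CRY2, had 0.409 and 0.124 RPKM in cry1 cry2, against 467 and 492 RPKM in the blue-lit wild type and 599 and 595 RPKM in the dark wild type. AT1G04420, the model after it, had no read in either mutant library and was at least 285-fold lower than in the dark wild type, counted against 3 reads per library. AT1G04390, on the other side of CRY2, did not pass the test at 0.18, and AT1G04380 lay under 1 RPKM in all 6 libraries. Transcripts of CRY2 and of both models on that side were thus missing or nearly missing from the mutant libraries. CRY1 transcript was still present at 32.8 and 33.7 RPKM in cry1 cry2, against 47.0 and 45.1 RPKM in the blue-lit wild type and 56.4 and 57.6 RPKM in the dark wild type. It fell by 0.76 against the dark wild type (SE 0.06, limma adjusted p = 2.16e-06), and transcript level does not tell whether the protein is made.

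Of 14 photoreceptor genes, 4 rose, 3 fell and 7 did not pass in the lit mutant against darkness, and the falls were CRY1, CRY2 and PHYA. PHYA, the phytochrome of dark-grown tissue that is destroyed and repressed in light, had 275 and 288 RPKM in cry1 cry2, against 46.4 and 44.3 RPKM in the blue-lit wild type and 362 and 384 RPKM in the dark wild type. Mutant values lay 0.40 below the dark wild type and 2.61 above the blue-lit wild type on the log2 scale, without overlap in either case. PHYE, a light-stable phytochrome, rose by 0.61, and PHYB, the main red light receptor, rose by 0.27, although PHYB did not pass without the second mutant library. PHOT2, the phototropin of strong light, had 22.7 and 23.9 RPKM in cry1 cry2, against 39.8 and 39.4 RPKM in the blue-lit wild type and 13.5 and 13.8 RPKM in the dark wild type, and its rise in the mutant (0.73, SE 0.06, limma adjusted p = 4.83e-06) was smaller than in the wild type (1.47). FKF1, a blue light receptor of flowering control, rose by 0.52 in the mutant and 1.42 in the wild type. PHOT1 did not pass in the mutant (0.13) and fell by 0.93 in the wild type under blue light. CRY3, an organellar cryptochrome-type protein, did not pass in the mutant (0.20, limma adjusted p = 0.0666) and rose by 2.17 in the wild type. PHYC, PHYD, ZTL, LKP2 and UVR8 did not pass either.

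Antenna genes, whose proteins bind chlorophyll around the photosystems, rose in 18 of 21 cases, with a median of 1.00 in the mutant and 1.26 in the wild type under blue light. LHCA1, of the photosystem I antenna, had 557 and 646 RPKM in cry1 cry2, against 709 and 646 RPKM in the blue-lit wild type and 64.4 and 60.6 RPKM in the dark wild type. Both lit groups overlapped and stood above darkness, with a rise of 3.24 in the mutant (SE 0.08, limma adjusted p = 3.25e-10) and no call between the genotypes (-0.17, limma adjusted p = 0.0626). LHCB1.4, of the main photosystem II antenna, had 951 and 1058 RPKM in cry1 cry2, against 2339 and 1978 RPKM in the blue-lit wild type and 51.5 and 48.5 RPKM in the dark wild type. LHCB1.5 had 5470.0 and 5976 RPKM in cry1 cry2, against 3086 and 2559 RPKM in the blue-lit wild type and 475 and 479.7 RPKM in the dark wild type, so here the mutant exceeded both wild-type groups. The LHCB1 genes are near copies that can share reads, and the split between them is uncertain. LHCA6, a minor antenna protein, was the only antenna gene that fell, by 0.40, and it rose by 2.29 in the blue-lit wild type.

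Between the genotypes in blue light, 8 of 21 antenna genes were higher in cry1 cry2, 10 were lower and 3 did not pass. The median difference was -0.17. Some genes of the list were higher in cry1 cry2 than in either wild-type group. The 5 named here were chosen after their values were seen. LHCA4, the partner of LHCA1 in photosystem I, had 1172 and 1315 RPKM in cry1 cry2, against 338 and 329.9 RPKM in the blue-lit wild type and 237 and 249 RPKM in the dark wild type. LHCB2.2, a mobile antenna protein of photosystem II, had 226 and 273 RPKM in cry1 cry2, against 35.7 and 36.6 RPKM in the blue-lit wild type and 60.4 and 56.4 RPKM in the dark wild type. LHCB3, another protein of that trimeric antenna, had 539 and 621 RPKM in cry1 cry2, against 144 and 132 RPKM in the blue-lit wild type and 190.4 and 199 RPKM in the dark wild type. In each case both mutant libraries lay above all 4 wild-type libraries. LHCB2.1 rose by 1.72 in the mutant, while its change in the blue-lit wild type was -0.69. LHCB4.2, a minor antenna gene, rose by 0.48 and changed by -2.14 in the blue-lit wild type, so the mutant was higher by 2.62 than the wild type in the same light. Without the second mutant library the antenna count was again 18 risen, and without the first it was 19.

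Photosystem subunits, the proteins of the reaction centres, rose in 28 of 29 cases in the mutant with a median of 0.88, and in 29 of 29 in the wild type with a median of 2.23. The mutant was lower than the blue-lit wild type for 28 of them. PSBW, a small photosystem II subunit, had 474 and 554 RPKM in cry1 cry2, against 1060.2 and 1091 RPKM in the blue-lit wild type and 198 and 192 RPKM in the dark wild type. PSAH2, a photosystem I subunit, had 162 and 188 RPKM in cry1 cry2, against 357 and 372 RPKM in the blue-lit wild type and 70.1 and 62.9 RPKM in the dark wild type. Mutant values stood between the dark and the lit wild type in both cases, and the changes against darkness were 1.39 and 1.38 (limma adjusted p = 9.35e-08 and 1.34e-07). FED1, a ferredoxin that takes electrons from photosystem I, was the exception with 148 and 169 RPKM in cry1 cry2, against 693 and 698 RPKM in the blue-lit wild type and 357 and 318 RPKM in the dark wild type, and it fell by 1.09 in the mutant. Leaving out the second mutant library, which held more of every photosystem transcript, left 26 risen.

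**Figure D2:**
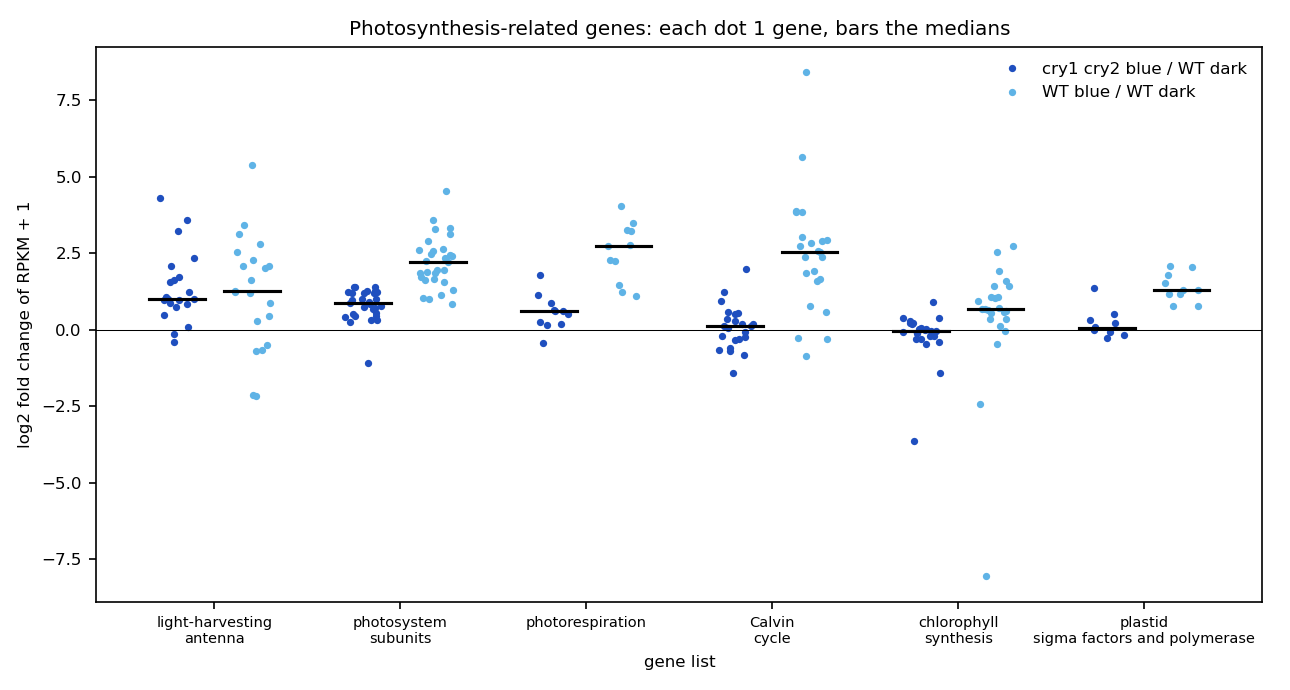
Each dot is 1 gene of a photosynthesis list, with the log2 fold change of RPKM + 1 against the dark wild type on the vertical axis, for cry1 cry2 in blue light and for the wild type in blue light. Medians are 1.00 in cry1 cry2 and 1.26 in the wild type for antenna genes, and 0.12 in cry1 cry2 and 2.53 in the wild type for Calvin cycle genes.

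Calvin cycle genes, whose enzymes fix carbon dioxide, were split in the mutant, where 10 rose, 9 fell and 4 did not pass of 23, against 20 risen and 3 fallen in the blue-lit wild type. RBCS2B, a gene of the Rubisco small subunit, had 399.8 and 423 RPKM in cry1 cry2, against 6272 and 6416 RPKM in the blue-lit wild type and 1097 and 1093 RPKM in the dark wild type. The mutant fell below darkness (-1.41, SE 0.07, limma adjusted p = 5.85e-08) while the wild type rose by 2.53 in the same light. RBCS1A changed by -0.84 and RBCS3B by -0.69 in the mutant, again as falls. These small subunit genes can share reads, but all 3 were below darkness. FBA5, a plastid aldolase, had 4.39 and 4.47 RPKM in cry1 cry2, against 462 and 473 RPKM in the blue-lit wild type and 0.340 and 0.396 RPKM in the dark wild type. Its log2 rise was 1.99 in the mutant and 8.42 in the lit wild type. CP12-2, a regulator of the cycle, rose by 1.23 in the mutant and 5.64 in the wild type. RCA, the activase of Rubisco, rose by 0.94 in the mutant and 3.87 in the wild type. Under median-of-ratios scaling the mutant's Calvin cycle count was 7 risen and 9 fallen.

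Photorespiration genes, which recover carbon from the side reaction of Rubisco, rose in 10 of 11 cases at a median of 0.60, against 2.72 in the blue-lit wild type. GGT1, a peroxisomal aminotransferase, had 377 and 416 RPKM in cry1 cry2, against 1082 and 1124 RPKM in the blue-lit wild type and 113 and 115 RPKM in the dark wild type, and both mutant libraries stood between the wild-type groups. GLDT, a subunit of glycine decarboxylase, fell by 0.43. The count dropped to 7 risen without the second mutant library, without the first dark library and under median-of-ratios scaling, and each time CAT2, GLDP2 and GOX2 were the calls lost. Sigma factors and polymerase parts, which transcribe plastid genes, rose in 3 of 10 cases in the mutant and in 10 of 10 in the wild type. SIG5, the sigma factor induced by blue light, rose by 1.35 in the mutant and 2.08 in the wild type. SIG2 did not pass in the mutant (0.10), and its change in the wild type was 1.77. Models of the plastid genome took 0.796% and 0.791% of reads in cry1 cry2, 1.31% and 1.42% in the blue-lit wild type and 0.895% and 0.834% in darkness. Poly(A) selection does not capture plastid transcripts evenly, which limits these shares.

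Chlorophyll synthesis genes had a median near 0 in the mutant, with 7 risen, 6 fallen and 11 not passed of 24 and a median of -0.04, against 19 risen and a median of 0.67 in the blue-lit wild type. PORA, the protochlorophyllide reductase of dark tissue, had 46.1 and 50.3 RPKM in cry1 cry2, against 3.66 and 0.10 RPKM in the blue-lit wild type and 587 and 631 RPKM in the dark wild type. The mutant stood between the wild-type groups and had fallen by 3.63 (SE 0.45, limma adjusted p = 7.14e-05), with an SE widened by the spread of the lit wild type. PORB, a reductase used in darkness and light, had 234 and 239.6 RPKM in cry1 cry2, against 112 and 119 RPKM in the blue-lit wild type and 613 and 652 RPKM in the dark wild type. PORC, the reductase of light-grown tissue, had 13.6 and 15.8 RPKM in cry1 cry2, against 89.6 and 89.7 RPKM in the blue-lit wild type and 12.3 and 13.0 RPKM in the dark wild type, so the mutant was near darkness, and its call at 0.20 was lost under 14 of the 18 alternatives. CAO, which makes chlorophyll b, rose by 0.92. Only 3 chlorophyll genes rose without the second mutant library and 4 without either dark library, and median-of-ratios scaling gave 4 risen and 10 fallen.

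Photoprotection genes included some with like changes in both lit groups. ELIP2, an early light-induced protein, had 3.55 and 3.54 RPKM in cry1 cry2, against 4.86 and 3.40 RPKM in the blue-lit wild type and 31.4 and 28.3 RPKM in the dark wild type, and the lit groups overlapped each other below darkness. ELIP1 changed by -1.41 in the mutant and -1.51 in the wild type. ABA1, zeaxanthin epoxidase, which also opens abscisic acid synthesis, rose by 1.14 in the mutant and 1.11 in the wild type, with 45.7 and 54.2 RPKM in cry1 cry2 and 48.5 and 49.1 RPKM in the blue-lit wild type. In the list of photoprotection and carotenoid genes as a whole, 8 of 16 rose in the mutant at a median of 0.17, against 13 at 1.30 in the wild type.

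Flavonoid genes differed in direction in the mutant. CHS, chalcone synthase, the first enzyme of the pathway, had 4.53 and 4.20 RPKM in cry1 cry2, against 166 and 186 RPKM in the blue-lit wild type and 23.1 and 21.8 RPKM in the dark wild type. Both mutant libraries lay below every wild-type library, and CHS fell by 2.13 against darkness (SE 0.07, limma adjusted p = 1.54e-09), while it rose by 2.91 in the lit wild type. TT5, chalcone isomerase, which acts next, had 15.5 and 16.8 RPKM in cry1 cry2, against 29.6 and 28.9 RPKM in the blue-lit wild type and 5.12 and 4.09 RPKM in the dark wild type, and CHIL, a related helper protein, had 10.7 and 12.2 RPKM in cry1 cry2, against 34.3 and 35.4 RPKM in the blue-lit wild type and 2.48 and 2.37 RPKM in the dark wild type. Both stood between darkness and the lit wild type, with rises of 1.62 and 1.86 in the mutant. Of 21 listed flavonoid genes, 12 were members, and 6 of these rose and 3 fell in the mutant, against 11 risen and 1 fallen in the wild type. The other falls were MYB111, a regulator of flavonol synthesis, at -0.62, and MYB75, a regulator of anthocyanin synthesis, at -0.47, a call lost without the first mutant or the first dark library.

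Light signalling regulators moved in both directions, with 17 risen, 15 fallen and 16 not passed of 48 in the mutant, against 16 risen and 29 fallen in the lit wild type. PIF4, a transcription factor of elongation growth, had 65.1 and 71.6 RPKM in cry1 cry2, against 9.68 and 8.73 RPKM in the blue-lit wild type and 15.3 and 16.7 RPKM in the dark wild type. Both mutant libraries were above all wild-type libraries, by 2.03 against darkness (SE 0.08, limma adjusted p = 7.71e-09) and by 2.76 against the lit wild type (SE 0.08). PIF7, a related factor of shade growth, had 5.10 and 5.01 RPKM in cry1 cry2, against 6.27 and 5.84 RPKM in the blue-lit wild type and 0.419 and 0.327 RPKM in the dark wild type, at a similar low level in both lit groups. BBX25, a B-box protein that acts with COP1, had 15.2 and 17.8 RPKM in cry1 cry2, against 11.6 and 12.0 RPKM in the blue-lit wild type and 1.01 and 1.05 RPKM in the dark wild type. HY5, the bZIP factor that promotes de-etiolation, had 18.2 and 18.6 RPKM in cry1 cry2, against 24.8 and 25.9 RPKM in the blue-lit wild type and 48.2 and 43.2 RPKM in the dark wild type, and its fall in the mutant (-1.26, SE 0.06) was deeper than the -0.82 of the lit wild type. FHY1, which carries phytochrome A into the nucleus, changed by -1.85, and BBX28 by -1.21 in the mutant and -4.27 in the wild type. A further 4 genes were picked after their values were seen. PIF5 rose by 1.60 in the mutant and changed by -0.82 in the wild type. SPA1, a partner of COP1, rose by 1.36, and the chloroplast regulators GLK1 and GLK2 rose by 1.09 and 1.4.

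**Figure D3:**
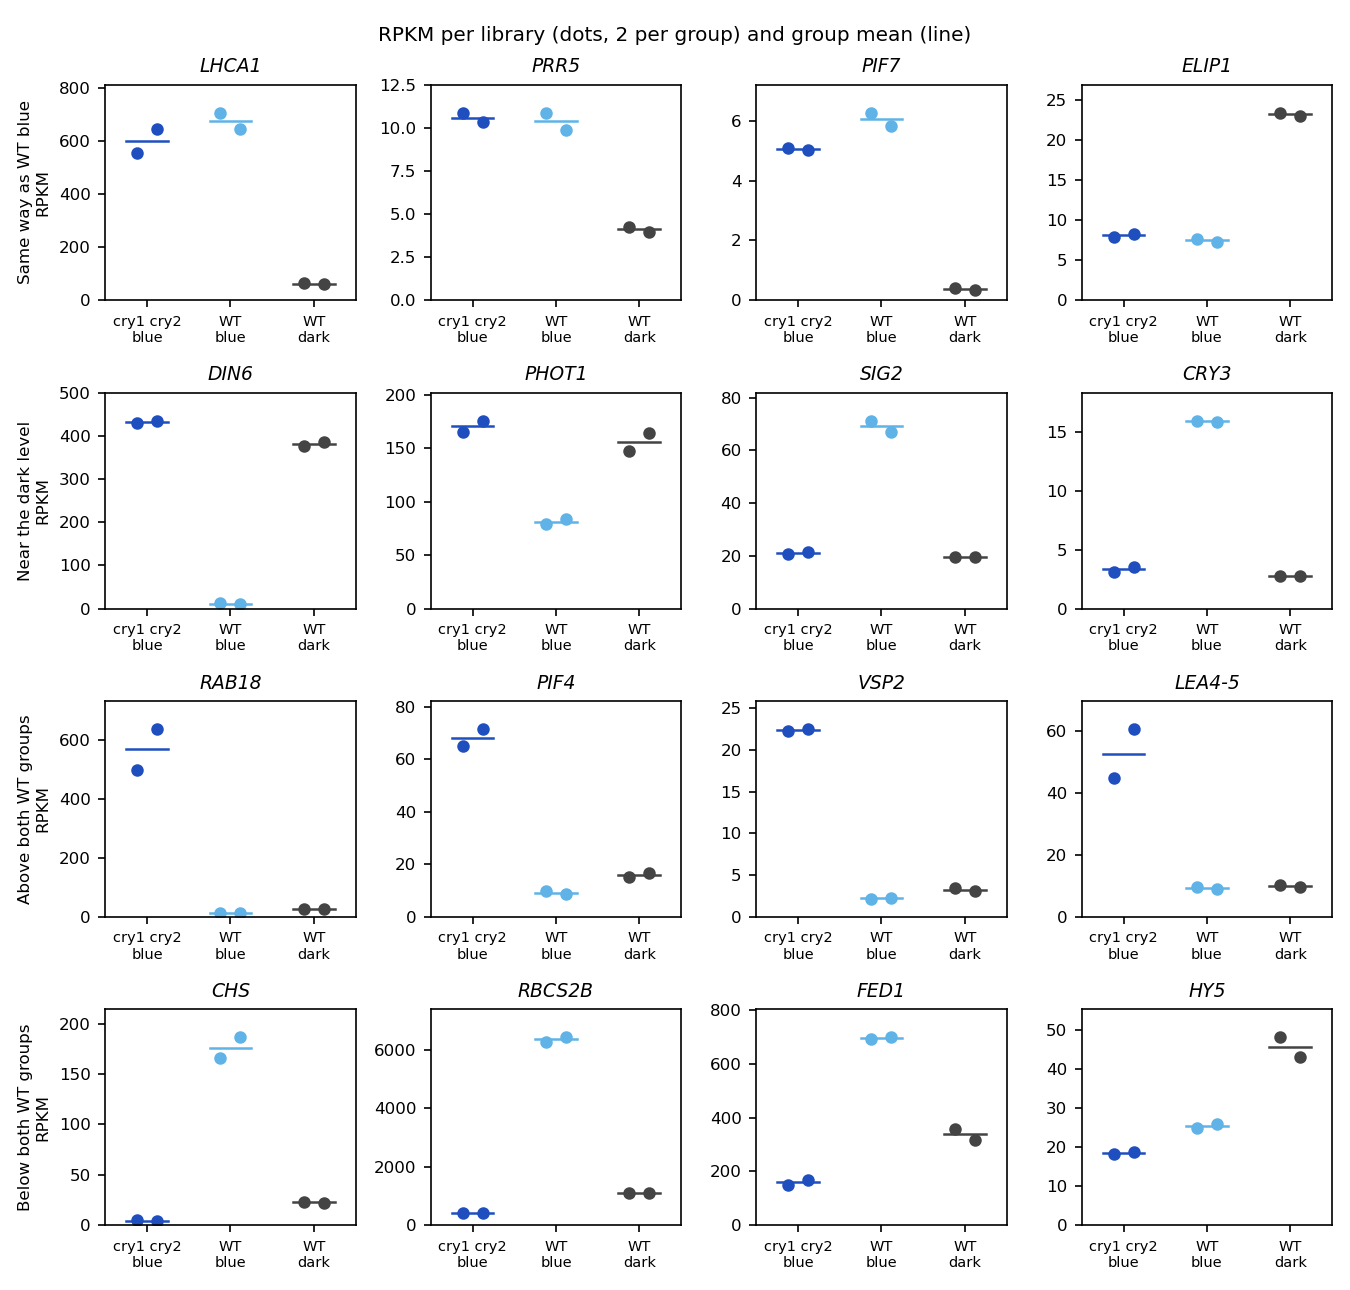
RPKM of 16 genes, a panel each with its own linear axis starting at 0, in cry1 cry2 under blue light, the wild type under blue light and the dark wild type; dots are the 2 libraries of a group and lines their means. Rows show genes alike in both lit groups, genes of the mutant near darkness, genes above both wild-type groups, and genes below darkness in the mutant.

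Clock genes were mostly higher in the lit mutant than in darkness, with 12 risen and 3 fallen of 17 and a median of 0.48, whereas 4 rose and 10 fell in the blue-lit wild type at a median of -0.36. ELF4, part of the evening complex, had 53.5 and 55.0 RPKM in cry1 cry2, against 123 and 121 RPKM in the blue-lit wild type and 7.53 and 7.67 RPKM in the dark wild type. PRR5, a daytime repressor, had 10.9 and 10.3 RPKM in cry1 cry2, against 10.8 and 9.90 RPKM in the blue-lit wild type and 4.22 and 3.99 RPKM in the dark wild type, so both lit groups were alike and above darkness. PRR9, its morning relative, had 3.79 and 4.33 RPKM in cry1 cry2, against 1.01 and 1.22 RPKM in the blue-lit wild type and 1.28 and 1.66 RPKM in the dark wild type, and here the mutant alone was above darkness. LHY, a morning factor, had 6.12 and 7.17 RPKM in cry1 cry2, against 9.16 and 10.5 RPKM in the blue-lit wild type and 22.9 and 22.6 RPKM in the dark wild type, and it fell by 1.64 in the mutant (SE 0.09, limma adjusted p = 1.01e-07). Seedlings were sampled at a single age, so phases cannot be read from these levels.

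Auxin genes moved in both directions in the mutant and mostly fell in the lit wild type. Of all members, 25.4% rose and 17.0% fell in the mutant, and 33.1% rose and 41.7% fell in the lit wild type. Among the 26 Aux/IAA genes that were members, of 28 listed, repressors that auxin induces, 7 rose and 8 fell at a median of 0.01, against 20 fallen at -0.70 in the lit wild type. IAA19, a repressor of hypocotyl growth, had 89.8 and 69.8 RPKM in cry1 cry2, against 16.0 and 15.1 RPKM in the blue-lit wild type and 183 and 177 RPKM in the dark wild type, with the mutant between the wild-type groups (-1.18 against darkness, SE 0.10, limma adjusted p = 3.68e-06). IAA20 fell by 1.24, and IAA29 rose by 0.64. YUC8, an enzyme of auxin synthesis, had 18.9 and 19.2 RPKM in cry1 cry2, against 12.9 and 14.9 RPKM in the dark wild type, and this rise of 0.43 was lost without the second mutant or the first dark library, and the change in the lit wild type was -1.81. TAA1, which acts before YUC8, changed by -0.66, and CYP79B3, which leads tryptophan into indole compounds, rose by 0.98. The list of GH3 and auxin synthesis genes gave 5 risen and 4 fallen of 15, but 1 or 2 fallen when any mutant or dark library was left out. Auxin transport genes were divided into 6 risen and 5 fallen of 16, against 2 risen and 13 fallen in the lit wild type, with a mutant median of 0.05, and 3 rose without the first mutant library.

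SAUR genes, which promote cell expansion, fell in 19 of 32 cases at a median of -0.36, against 26 fallen at -1.05 in the lit wild type. Their count was 12 without the second mutant library and 13 without the first dark library, and SAUR19 to SAUR24 can share reads. SAUR76 had 1.07 and 1.5 RPKM in cry1 cry2, against 6.98 and 5.43 RPKM in the dark wild type, and SAUR9 had 3.01 and 2.21 RPKM in cry1 cry2, against 10.2 and 8.91 RPKM in the dark wild type. Both fell, by 1.65 and 1.56, and SAUR14 rose by 1.00. Brassinosteroid genes were balanced, with 7 risen and 8 fallen of 25, against 5 risen and 18 fallen in the lit wild type. PRE1, a growth-promoting helix-loop-helix protein, had 45.2 and 46.6 RPKM in cry1 cry2, against 4.77 and 4.79 RPKM in the blue-lit wild type and 21.1 and 21.8 RPKM in the dark wild type, so the mutant exceeded both wild-type groups, while its relative PRE6 fell by 1.02. Gibberellin genes gave 4 risen and 6 fallen of 19, against 1 risen and 15 fallen in the lit wild type. GA3OX1, which makes active gibberellin, fell by 1.10. Beside these counts, 25.4% of all members rose and 17.0% fell in the mutant.

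Ethylene and apical hook genes leaned down in the mutant, with 11 fallen and 1 risen of 19 at a median of -0.26, against 17 fallen at -1.09 in the lit wild type. HLS1, needed to form the hook, had 8.59 and 7.89 RPKM in cry1 cry2, against 2.48 and 2.35 RPKM in the blue-lit wild type and 18.7 and 22.5 RPKM in the dark wild type. ACS5, an ethylene synthesis enzyme, fell by 1.71, and ETR2, an ethylene receptor, fell by 1.30. ACO4, the last enzyme of ethylene synthesis, rose by 1.00. The second mutant library was the higher of the pair for only 1 of the 19.

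Cell wall genes changed in both directions, with 20 of 40 expansin and XTH genes risen and 12 fallen, against 18 risen and 20 fallen in the lit wild type. XTH15, a wall-remodelling enzyme, had 539 and 490.3 RPKM in cry1 cry2, against 34.0 and 26.6 RPKM in the blue-lit wild type and 2592 and 2725 RPKM in the dark wild type. It fell by 2.37 in the mutant (SE 0.10, limma adjusted p = 1.35e-08), to a level between the wild-type groups. EXPA9, a wall-loosening expansin, fell by 2.10. XTH7 had 195 and 165 RPKM in cry1 cry2, against 142 and 132 RPKM in the blue-lit wild type and 33.2 and 33.3 RPKM in the dark wild type, and XTH6 rose by 2.22, so these 2 enzymes were above darkness in the mutant. Aquaporins, the water channels of membranes, fell in 13 of 21 cases at a median of -0.41, against 17 at -1.4 in the lit wild type. PIP2;4 had 170.4 and 140.4 RPKM in cry1 cry2, against 46.7 and 42.8 RPKM in the blue-lit wild type and 531 and 576 RPKM in the dark wild type, and TIP2;3 fell by 1.79, and both genes are expressed mainly in roots. TIP3;1, the seed tonoplast channel, rose by 1.63. Cellulose and tubulin genes gave 6 risen and 6 fallen of 25, beside 25.4% risen and 17.0% fallen of all members, with TUB1 down by 1.28. Cell cycle genes rose in 13 of 27 cases with no fall, but the count was 6 without the second mutant library, 9 without the first, 8 without the first dark library and 10 risen with 3 fallen under median-of-ratios scaling. KNOLLE, a syntaxin of cell division, rose by 0.46.

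Genes of sugar starvation and darkness had a median near 0 in the mutant and mostly fell in the lit wild type. Of 18, 4 rose and 7 fell in the mutant at a median of -0.03, against 16 fallen at -1.77 in the lit wild type. DIN6, the dark-induced asparagine synthetase, had 431 and 435 RPKM in cry1 cry2, against 11.7 and 9.95 RPKM in the blue-lit wild type and 377 and 387 RPKM in the dark wild type. The mutant and dark values did not overlap but did not pass the test (0.18, SE 0.07, limma adjusted p = 0.0584), and DIN6 was higher in the mutant than in the lit wild type by 5.21. That difference from darkness passed under 6 of the 18 alternatives, always as a rise. DIN3, a subunit for branched amino acid breakdown, changed by -0.87. Seed oil breakdown genes fell in 9 of 19 cases at a median of -0.15, a count that was 5 or 6 when any mutant or dark library was left out. Hypoxia genes, which low oxygen induces, fell in 9 of 10 cases at a median of -1.20, against -2.06 in the lit wild type. PCO1, an oxygen-sensing cysteine oxidase, had 3.90 and 3.88 RPKM in cry1 cry2, against 2.67 and 2.92 RPKM in the blue-lit wild type and 28.8 and 28.0 RPKM in the dark wild type, and ADH1, the alcohol dehydrogenase of low oxygen, fell by 0.89. PDC2, a pyruvate decarboxylase, rose by 1.14 and was the exception.

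Genes of abscisic acid, the hormone of drought and seed dormancy, were raised in the lit mutant and mostly lowered in the lit wild type. Of 28 members among 32 listed genes, 24 rose and 2 fell in cry1 cry2 at a median of 0.49, whereas 4 rose and 22 fell in the lit wild type at a median of -0.64. In the test between the genotypes in blue light, 27 of 28 were higher in the mutant. RAB18, a dehydrin that protects dried cells, had 500.3 and 638 RPKM in cry1 cry2, against 12.0 and 11.5 RPKM in the blue-lit wild type and 26.7 and 27.4 RPKM in the dark wild type. Both mutant libraries stood above all 4 wild-type libraries, 21.0-fold above darkness in mean RPKM, with a log2 fold change of 4.34 (SE 0.09, limma adjusted p = 2.15e-10). RD29B, a desiccation protein gene used as an abscisic acid marker, had 149 and 183 RPKM in cry1 cry2, against 8.26 and 7.04 RPKM in the blue-lit wild type and 23.3 and 22.8 RPKM in the dark wild type, a rise in the mutant and a fall in the lit wild type. KIN1, a small protein of cold and drought, had 119 and 198 RPKM in cry1 cry2, against 31.2 and 25.5 RPKM in the blue-lit wild type and 8.21 and 7.02 RPKM in the dark wild type, and its near copy KIN2 had 556 and 703 RPKM in cry1 cry2, against 292 and 335 RPKM in the blue-lit wild type and 57.6 and 63.2 RPKM in the dark wild type; KIN1 and KIN2 can share reads. ERD14, another dehydrin, fell by 0.38, and CYP707A3, which breaks abscisic acid down, fell by 0.70. The median was 0.59 without the first mutant library and 0.49 without the second. It was 0.56 without the first dark library and 0.52 without the second. Under median-of-ratios scaling 21 rose at a median of 0.43.

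Some signalling and synthesis genes of the hormone were raised. The 4 given here were chosen after their values were seen and do not stand for their classes. HAI2, a phosphatase that dampens the signal, had 6.36 and 8.78 RPKM in cry1 cry2, against 0.455 and 0.556 RPKM in the blue-lit wild type and 1.37 and 1.28 RPKM in the dark wild type. HAB1, of the same class, rose by 1.02, and its change in the lit wild type was -0.32. ABF2, a transcription factor that binds abscisic acid response elements, rose by 0.72. NCED3, the stress-induced enzyme of abscisic acid synthesis, had 17.3 and 18.6 RPKM in cry1 cry2, against 12.6 and 13.3 RPKM in the dark wild type, a rise of 0.44, whereas its change in the lit wild type was -1.13.

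Seed and cold genes were raised in the same libraries. Of 14 listed seed storage genes, 7 stayed under the filter, and the 7 members all rose, which says little of the list because a gene silent in darkness enters only when high in the mutant. Summed over all 14 listed genes, seed transcripts came to 80.9 and 119 RPKM in cry1 cry2. They came to 35.3 and 27.7 RPKM in the blue-lit wild type and 15.8 and 14.2 RPKM in the dark wild type. CRA1, a 12S storage globulin, had 7.29 and 11.6 RPKM in cry1 cry2, against 3.97 and 1.98 RPKM in the blue-lit wild type and 0.219 and 0.298 RPKM in the dark wild type, and LEA4-5, a late embryogenesis protein, had 44.7 and 60.5 RPKM in cry1 cry2, against 9.71 and 9.0 RPKM in the blue-lit wild type and 10.3 and 9.70 RPKM in the dark wild type. For both, the mutant exceeded all wild-type libraries, and the second mutant library was the higher. Cold genes rose in 8 of 10 cases in the mutant, against 6 in the lit wild type. COR413IM1, a chloroplast membrane protein of cold acclimation, had 122 and 146 RPKM in cry1 cry2, against 75.9 and 74.3 RPKM in the blue-lit wild type and 14.5 and 13.6 RPKM in the dark wild type, a rise of 3.16 (SE 0.09, limma adjusted p = 6.03e-10). COR15A, a chloroplast stroma protein, had 1.72 and 7.87 RPKM in cry1 cry2, against 24.7 and 39.8 RPKM in the blue-lit wild type and 0 and 0.0655 RPKM in the dark wild type, and its log2 fold change of 2.25 was 1.4 without the second mutant library and 3.10 without the first. COR15B, its near copy, had 2.85 and 10.4 RPKM in cry1 cry2, against 55.7 and 64.8 RPKM in the blue-lit wild type. It had no read in either dark library. The mean of the mutant libraries was at least 28.4-fold above darkness, counted against 3 reads per library (0.233 RPKM). That mean rests mostly on the second mutant library, at 10.4 RPKM, and the first alone, at 2.85 RPKM, gives a smaller fold.

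**Figure D4:**
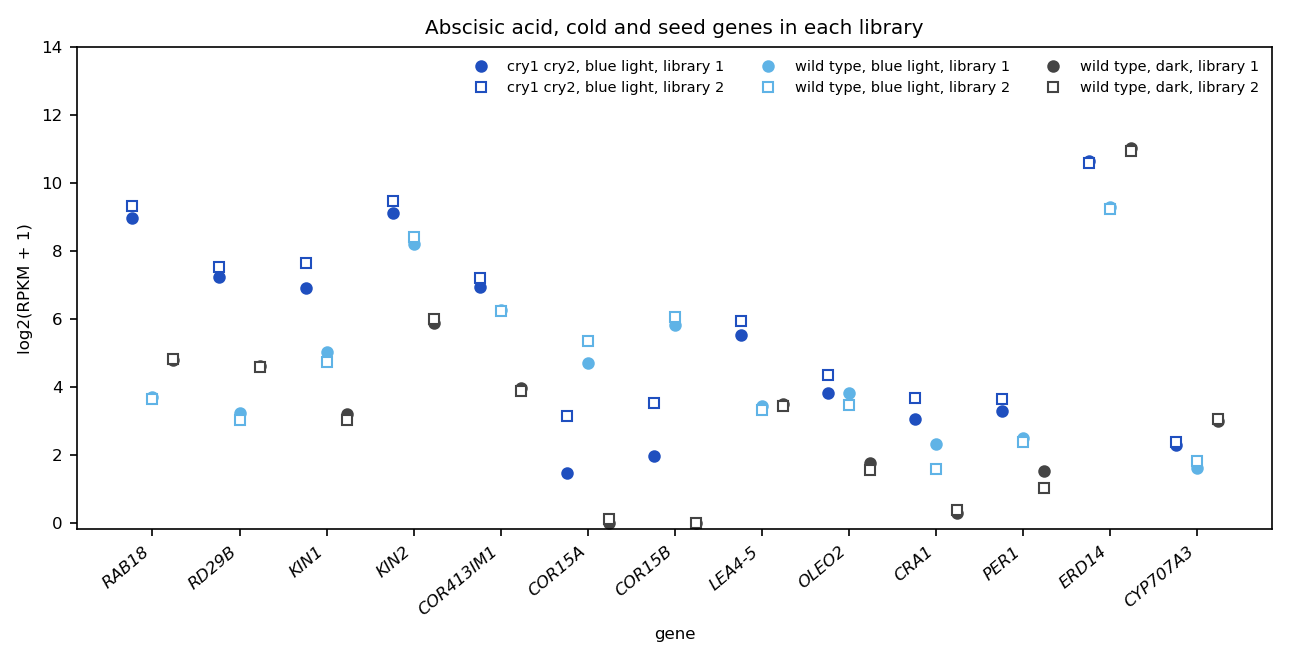
The log2(RPKM + 1) of abscisic acid, cold and seed genes on a linear axis, with a dot for each of the 2 libraries of cry1 cry2 in blue light, the wild type in blue light and the dark wild type. RAB18, RD29B and LEA4-5 lie far above both wild-type groups in the mutant, whereas KIN2 and COR413IM1 are also above darkness in the lit wild type.

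Carbon and nitrogen genes were raised in part. Starch and sugar genes gave 16 risen and 6 fallen of 31, against 17 risen and 11 fallen in the lit wild type. SUS3, a sucrose synthase of seeds and drought, had 38.1 and 47.4 RPKM in cry1 cry2, against 7.55 and 7.92 RPKM in the blue-lit wild type and 12.8 and 13.6 RPKM in the dark wild type, above both wild-type groups, and SUS4, a sucrose synthase of low oxygen, changed by -1.63. In the nitrogen list 9 of 19 rose and 3 fell at a median of 0.04, against 13 risen and 6 fallen in the lit wild type. ASN2, the light-induced asparagine synthetase, was among the rises, with 24.1 and 23.5 RPKM in cry1 cry2. It had 206 and 239.6 RPKM in the blue-lit wild type and 6.10 and 5.99 RPKM in the dark wild type. NRT1.7, a nitrate carrier of the phloem, rose by 1.69, and AMT1;2, an ammonium carrier, rose by 1.60.

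Glucosinolates are defence compounds of the cabbage family, and their gene list also holds the glucosidase BGLU18. Of its 18 members among 24 listed, 15 rose and none fell in the mutant, at a median of 0.48. In the lit wild type 11 rose and 6 fell, at a median of 0.86. Between the genotypes in blue light, 8 were higher and 9 lower in the mutant. The other 6 listed genes stayed under the filter. A gene under 1 RPKM in darkness, such as MAM1, is a member only when higher in the mutant. Such a gene cannot count as a fall. MYB28, the regulator of the methionine-derived branch, had 7.65 and 7.17 RPKM in cry1 cry2, against 35.1 and 35.5 RPKM in the blue-lit wild type and 1.09 and 1.04 RPKM in the dark wild type. MAM1, which lengthens methionine in that branch, had 1.65 and 2.40 RPKM in cry1 cry2, against 54.1 and 57.1 RPKM in the blue-lit wild type and 0.449 and 0.314 RPKM in the dark wild type. For both, the mutant libraries lay between darkness and the lit wild type. BGLU18, a glucosidase of the ER bodies that also frees abscisic acid from its glucose ester, had 23.8 and 32.8 RPKM in cry1 cry2, against 12.4 and 14.4 RPKM in the blue-lit wild type and 0.757 and 0.671 RPKM in the dark wild type, where the mutant was the highest group. PYK10, the main ER body glucosidase of roots, was picked after its values were seen and had 5724 and 5279.6 RPKM in cry1 cry2, against 2598 and 2338 RPKM in the blue-lit wild type and 3807 and 3830.3 RPKM in the dark wild type. Jasmonate and defence genes gave 8 risen and 4 fallen of 19 members among 26 listed. VSP2, a storage protein induced by jasmonate, had 22.3 and 22.5 RPKM in cry1 cry2, against 2.15 and 2.25 RPKM in the blue-lit wild type and 3.44 and 3.07 RPKM in the dark wild type, above both wild-type groups, and AOC2, a jasmonate synthesis enzyme, rose by 1.36 in the mutant and 6.37 in the lit wild type.

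Type-A cytokinin response genes gave 2 risen and 2 fallen of 8, and touch and wound genes 1 risen and 7 fallen of 17, against 14 fallen in the lit wild type. Root tissue markers gave 4 risen and 3 fallen of 20 with a median of 0.03, and root hair genes 4 risen and 2 fallen of 19. Beside these counts, 25.4% of all members rose and 17.0% fell in the mutant. Without the second mutant library only 1 root hair gene rose, without the first 2 root tissue genes rose, and without the second dark library 4 touch genes fell. IRT1, the iron carrier of the root surface, rose by 1.11, and CASP5, a Casparian strip protein, fell by 0.64. Heat shock genes gave 3 risen and 3 fallen of 9, with HSP70 up by 1.12 and BIP3, of the endoplasmic reticulum, down by 1.44. Reference genes had a median of 0.00, but ACT2 and ACT8, actins often used to normalise, fell by 0.38 and 0.40. Of 88 models of the plastid genome, 6 rose and 21 fell in the mutant, against 27 risen and 10 fallen in the lit wild type, and 44 were lower in the mutant than in the lit wild type.

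**Figure D5:**
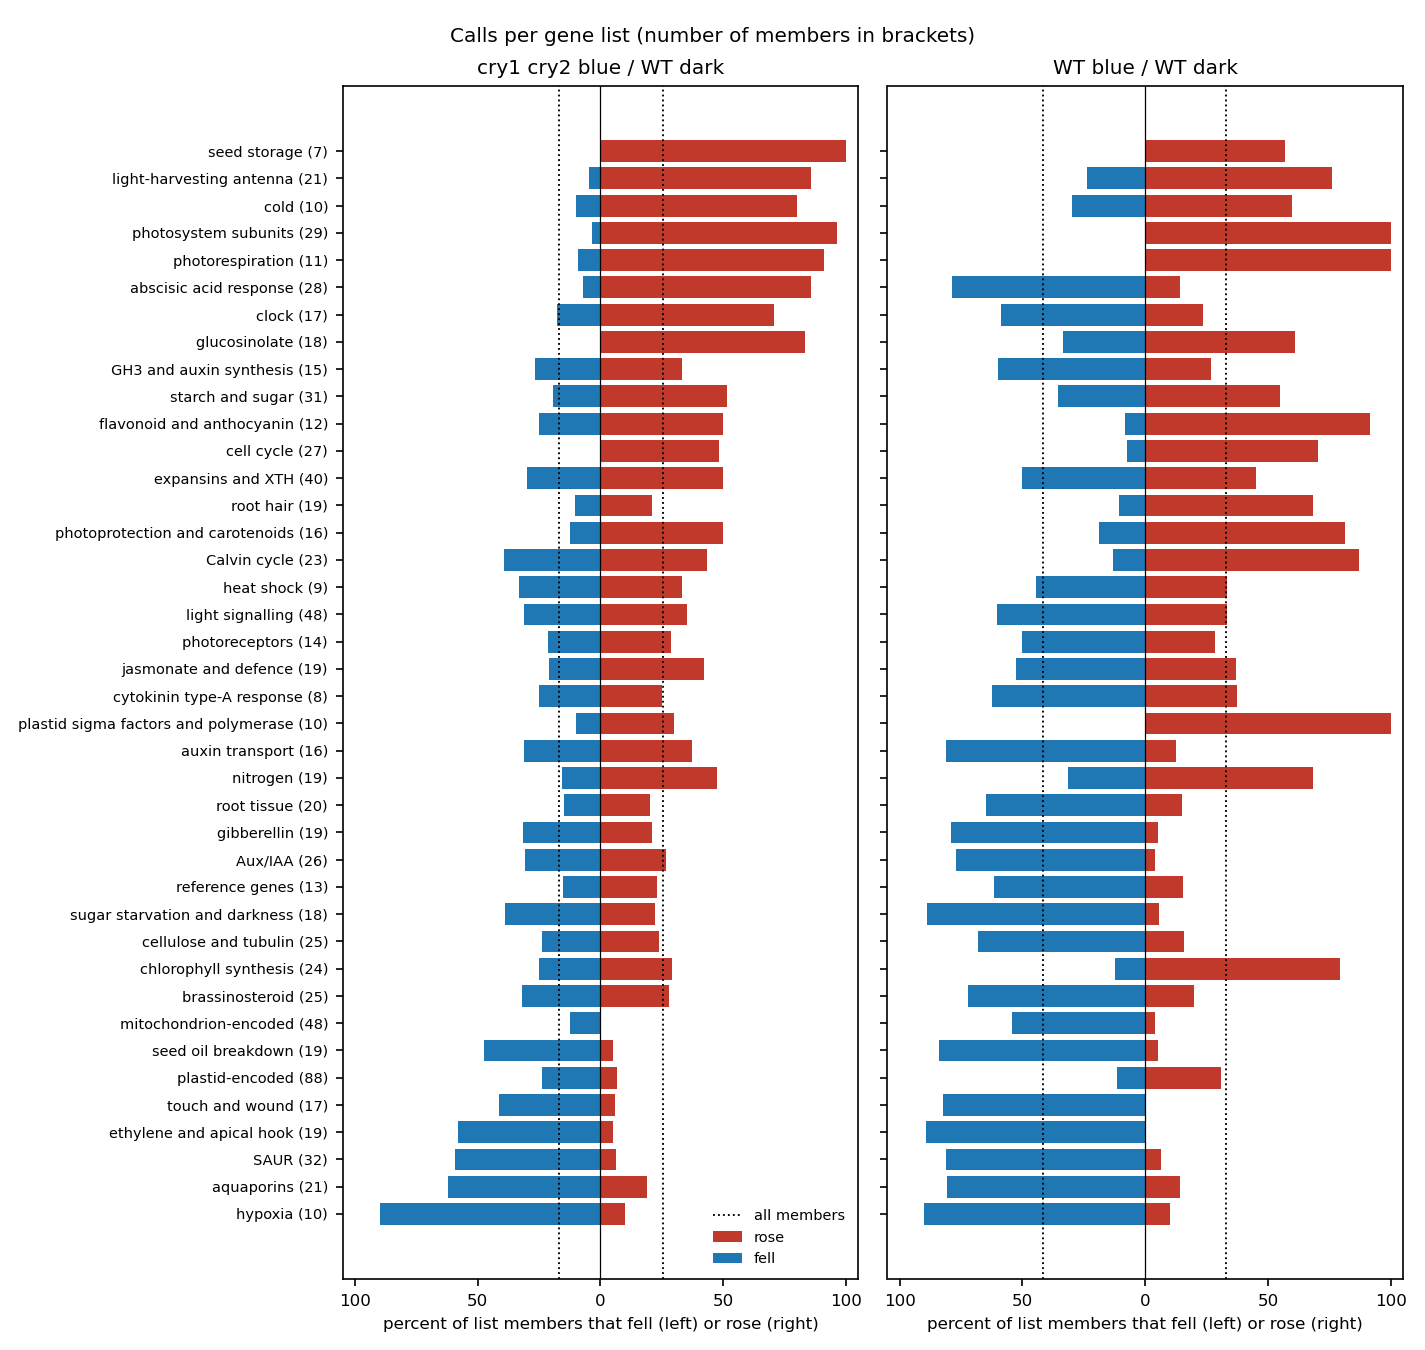
For each gene list, bars give the percent of members that rose (right) or fell (left) at a limma adjusted p under 0.05, for cry1 cry2 in blue light and for the wild type in blue light, each against the dark wild type. The abscisic acid list points right in the mutant (24 of 28 risen) and left in the wild type (22 of 28 fallen), while photosystem and antenna genes point right in both.

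Single genes outside these lists gave some of the largest changes. LTP4, a lipid transfer protein, had 34.3 and 65.4 RPKM in cry1 cry2, against 1.24 and 2.06 RPKM in the blue-lit wild type and 0.658 and 0.235 RPKM in the dark wild type, the largest rise among non-overlapping members of at least 5 RPKM, at 5.08 (SE 0.25, limma adjusted p = 5.70e-08). LEA7, a late embryogenesis protein, had 101 and 139.6 RPKM in cry1 cry2, against 5.76 and 6.03 RPKM in the blue-lit wild type and 8.23 and 7.51 RPKM in the dark wild type. HSFA6A, a heat shock factor gene that abscisic acid and salt induce, had 20.9 and 26.8 RPKM in cry1 cry2, against 1.23 and 1.47 RPKM in the blue-lit wild type and 1.10 and 1.75 RPKM in the dark wild type. In these 3 genes both mutant libraries lay above every wild-type library. AT5G39520, of unknown function, had 25.1 and 30.2 RPKM in cry1 cry2, against 0.228 and 0.202 RPKM in the blue-lit wild type and 2.23 and 2.12 RPKM in the dark wild type, and AT4G21650, a subtilase, had 16.5 and 20.7 RPKM in cry1 cry2, against 1.39 and 1.56 RPKM in the blue-lit wild type and 1.10 and 0.932 RPKM in the dark wild type. AT1G04660, a glycine-rich protein gene, rose by 3.91 in the mutant and 1.92 in the lit wild type. AT2G41190, an amino acid transporter family gene, had 98.1 and 116 RPKM in cry1 cry2, against 4.48 and 4.78 RPKM in the blue-lit wild type and 24.2 and 22 RPKM in the dark wild type, a rise in the mutant and a fall in the lit wild type.

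Some genes changed in the same direction in both lit groups against darkness. RGF9, a root growth peptide gene, had 38.2 and 35.4 RPKM in cry1 cry2, against 108 and 104 RPKM in the blue-lit wild type and 3.06 and 2.58 RPKM in the dark wild type. AT3G25820, a terpene synthase that makes cineole, had 45.9 and 42.9 RPKM in cry1 cry2, against 82.9 and 80.7 RPKM in the blue-lit wild type and 3.62 and 4.06 RPKM in the dark wild type. ECS1, a cell wall protein gene, had 31.0 and 31.6 RPKM in cry1 cry2, against 249 and 262 RPKM in the blue-lit wild type and 2.08 and 2.56 RPKM in the dark wild type. These rose in both lit groups, by 3.31, 3.23 and 3.29 in the mutant and 4.81, 4.10 and 6.27 in the wild type. CYP96A5, a cytochrome P450, had 0.593 and 0.301 RPKM in cry1 cry2, against 0.142 and 0.0628 RPKM in the blue-lit wild type and 30.4 and 30.4 RPKM in the dark wild type. The B-box gene bbx23 had 1.08 and 1.51 RPKM in cry1 cry2, against 0 and 0.0926 RPKM in the blue-lit wild type and 36.6 and 36.5 RPKM in the dark wild type, and AT4G09530, a SAUR-like gene, had 0.694 and 1.03 RPKM in cry1 cry2, against 0.419 and 0.154 RPKM in the blue-lit wild type and 16.6 and 17.3 RPKM in the dark wild type. All of the last 3 were under 2 RPKM in both lit groups and lower there than in darkness, with changes of -4.45, -4.04 and -3.27 on the log2 scale in the mutant. AGL44, a root nitrate-response factor, and CEL2, a cellulase, fell by 3.14 and 2.95.

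Further genes fell below darkness in the mutant and rose above it in the lit wild type, as CHS, RBCS2B and FED1 did, and 3 of them are given here. AT1G67870, a glycine-rich protein gene, had 24.2 and 24.2 RPKM in cry1 cry2, against 421 and 407 RPKM in the blue-lit wild type and 153 and 143 RPKM in the dark wild type. It fell by 2.56 in the mutant (SE 0.06, limma adjusted p = 3.25e-10) and rose by 1.48 in the lit wild type. CRK40, a cysteine-rich receptor kinase, had 0.954 and 1.30 RPKM in cry1 cry2, against 11.5 and 11 RPKM in the blue-lit wild type and 4.36 and 4.12 RPKM in the dark wild type. AT3G52870, a calmodulin-binding protein gene, had 8.01 and 10.3 RPKM in cry1 cry2, against 46.8 and 46.4 RPKM in the blue-lit wild type and 30.1 and 29.3 RPKM in the dark wild type. In all 3 genes the mutant libraries lay below all 4 wild-type libraries.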

How the data were processed

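Bulk polyadenylated RNA was sequenced from whole seedlings, and the 4 libraries compared held 19.3 M to 23.1 M reads. The submitters' processing notes name Bowtie2 2.2.2 and TAIR10. The authors deposited RPKM values for each gene model, as the file headers state, and strandedness and the way reads were assigned to paralogs are not given in the sources used here. Symbols came from RefSeq (TAIR10.1), which held 26719 of 27416 models, and no coordinates are printed because the builds may differ.

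Tests used limma 3.58.1 in R 4.3.3 (eBayes with trend) on log2(RPKM + 1). All 8 libraries and 4 groups entered a single fit, without a replicate block, over 20044 models with at least 1 RPKM in at least 2 of the 8 libraries, and Benjamini-Hochberg adjustment ran over all of them. The 19279 members are those with at least 1 RPKM in at least 2 of the 4 libraries of cry1 cry2 and the dark wild type. RPKM steps gave whole reads, to within 0.02 reads, for all 24717 models above 0. A voom test on those reads called 5150 members risen and 3443 fallen. The scripts were tested on simulated data.

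Members and gene lists (38 lists, 813 genes) were chosen with earlier results of these data known. Named genes were CRY1, CRY2 and its neighbours, the 12 largest rises and 12 largest falls with at least 5 RPKM and no overlap, up to 3 rises and 3 falls of each list, members of lists of 14 or fewer genes, the 6 leading genes of each pattern across the 3 groups, and 10 further light-response genes. Genes named outside this rule are marked as chosen after their values were seen. Alternatives were other pseudocounts, filters and scalings, a fit of the compared groups only, organelle models left out, voom, a replicate block and each library left out in turn.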

Additional observations from a re-analysis of the deposited data

How the results depend on the processing

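Of the 273 named genes with a fit, 233 kept their direction and their side of the threshold under all 18 alternatives, and none reversed. The 4906 rises and 3281 falls ranged over 3372 to 5031 and 2407 to 3339 when 1 library was left out. Rises and falls of at least 2-fold ranged over 531 to 625 and 292 to 345. For the lit wild type against darkness the ranges were 5804 to 6430 rises and 7300 to 8123 falls, and for cry1 cry2 against the lit wild type 7245 to 8400 and 4273 to 4947. A pseudocount of 5 lowered the 2-fold counts to 252 rises and 164 falls, since it damps low genes by construction. Median-of-ratios scaling gave 3733 rises and 4241 falls, so the direction split rests on the scaling. Deviations of same-numbered libraries from their group means correlated across genes, which are not independent replicates, at r = -0.006 between cry1 cry2 and the dark wild type, 0.033 between cry1 cry2 and the lit wild type and 0.138 between the lit and the dark wild type. With 2 libraries a group this does not establish a pairing, and with the replicate number as a block 4784 rose and 3224 fell. The list counts under each alternative were added after the data were seen. Genes under a few RPKM carry more counting error, and the 4 residual degrees of freedom limit the precision of all genes.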

Other observations

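Beyond the lists, models were grouped by the product text of the annotation, and the families of at least 10 members named here were picked from 235 by their medians after the values were seen, with no test. Beta glucosidases, enzymes that free sugars from defence compounds and hormones, had 12 risen and 1 fallen of 20 at a median of 0.66 in cry1 cry2, against 0.12 in the lit wild type. Laccases, which oxidise wall phenolics, had 9 risen and none fallen of 13 at a median of 0.45 in the mutant, and 4 risen and 6 fallen in the lit wild type at -0.17. The Pollen Ole e 1 allergen and extensin family had 15 risen and none fallen of 19 at 0.48 in the mutant, against 14 risen and 5 fallen at 0.70 in the lit wild type. Plastid fibrillins, proteins of lipid droplets in plastids, had 8 risen and 1 fallen of 10 at 0.43, against 10 risen at 1.22 in the lit wild type.

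At the other end, the basic leucine-zipper family had the lowest median, -0.50, with 3 risen and 6 fallen of 11. Cysteine/Histidine-rich C1 domain proteins had 3 risen and 33 fallen of 62 at a median of -0.32. The SAUR-like family had 9 risen and 24 fallen of 63 at -0.29, and the CYP705A cytochromes P450 2 risen and 10 fallen of 18 at -0.28. In the lit wild type the C1 family had 44 fallen at -0.69 and the CYP705A family 17 at -0.83. Nuclear genes of ribosomal proteins had 161 risen and 31 fallen of 318 at a median of 0.20 in the mutant, against 267 risen and 21 fallen at 0.58 in the lit wild type.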
